A study of Mus musculus with 4 samples.

Results

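Mouse haemoglobin is encoded by genes of the alpha and beta globin clusters, and the protein Eraf holds free alpha globin chains until they pair. The probes described here are those whose gene name in the spot files is Hba-a1, Hba-a2, Hba-x, Hbb-b1, Hbb-b2, Hbb-bh1, Hbb-y, Hbq1 or Eraf. Of these 9 names, 7 were found among the 50090 names in the spot files, on 11 of the 61307 probes of the array. No probe carries the name Hba-a2 or Hbb-b2. The members were set by gene name, with earlier results of these data known.

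The data are 4 Agilent 1-colour arrays of cells sorted from bone marrow of 7-week-old C57BL6/J mice, 1 array for each population and day. The CD45-negative day 10 and LSK day 10 cells came from CD45.1 recipients irradiated with 700 cGy and transplanted with 30000 LSK cells from CD45.2 donors. The CD45-negative day 0 and LSK day 0 cells came from healthy mice that had neither been irradiated nor transplanted. LSK cells, which lack lineage antigens and carry Sca-1 and c-kit, include stem cells and early progenitors of the blood, and the CD45-negative cells were sorted as stromal or niche cells. The labels write the stromal gate as CD45.1-negative in one field and as CD45-negative in others, so the antibody is uncertain. Whether mice were pooled is not stated in the sources used here. With 1 array a group there is no replicate, no test and no error between mice, and every difference below is a difference between 2 arrays. How precise a value is depends on this number of arrays. Radiation, transplantation and time differ together between the days and cannot be told apart.

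Red cell precursors make haemoglobin from paired alpha and beta chains, each holding a haem group, and switch from embryonic to adult chains early in life. In adult marrow the adult genes Hba-a1 and Hba-a2 (alpha) and Hbb-b1 and Hbb-b2 (beta) supply nearly all chains, while Hba-x (zeta), Hbb-y (epsilon-y) and Hbb-bh1 (beta-h1) belong to the embryonic red cells of the yolk sac. Stem cells and stromal cells are not known as haemoglobin-producing cells, whereas erythroblasts lose CD45 as they mature.

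The probe sequences set what these signals can distinguish, so those on which the results turn are shown here as they stand in the spot files, 5′ to 3′. Capitals mark the longest stretch that a probe shares with any other probe on the array, searched from 15 bases upward.
Hba-a1: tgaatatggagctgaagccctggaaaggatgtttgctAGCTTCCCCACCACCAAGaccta
Hbb-b1 probe 1: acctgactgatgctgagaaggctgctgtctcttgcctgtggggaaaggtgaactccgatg
Hbb-b1 probe 2: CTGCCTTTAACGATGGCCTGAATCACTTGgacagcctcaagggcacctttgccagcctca
Hbb-b1 probe 4: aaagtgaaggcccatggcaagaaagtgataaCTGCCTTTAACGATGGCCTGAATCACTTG
Eraf: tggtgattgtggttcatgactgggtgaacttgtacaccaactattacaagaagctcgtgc
Hbb-y: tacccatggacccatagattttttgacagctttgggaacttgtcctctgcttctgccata
Hbb-bh1 probe 1: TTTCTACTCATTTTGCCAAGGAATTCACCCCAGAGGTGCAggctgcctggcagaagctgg
Hbb-bh1 probe 2: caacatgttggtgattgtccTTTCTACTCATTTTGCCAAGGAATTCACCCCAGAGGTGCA

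Probes 2 and 4 of Hbb-b1 overlap by 29 bases, and the 2 Hbb-bh1 probes overlap by 40 bases, so neither pair is independent. The Hba-a1 probe lists transcripts of both Hba-a1 and Hba-a2 in the spot files, and its signal is the sum of both alpha genes as far as the annotation goes. Hbb-b1 probes 1 and 3 list transcripts of 2 beta genes, and probes 2 and 4 list 1. In RefSeq (GRCm38.p6) that last transcript belongs to Hbb-bt, the name used for this gene in the C57BL/6J haplotype. Of the other members, Hbq1 is Hbq1a in RefSeq, and Hba-x, Hbb-y and Hbb-bh1 keep their names. RefSeq places the alpha cluster on chromosome 11 and the beta cluster on chromosome 7. The transcript of Eraf was not matched in the table used here, and the name of the files is kept.

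On the CD45-negative arrays the adult globin probes lay at or near the ceiling of the scanner, and this decides which differences can be measured. The raw pixel signal cannot exceed 65535 units. At day 10, 2 of the 11 member probes were flagged as saturated in CD45-negative cells, and at day 0, 6 were. None was saturated in LSK cells on either day. The detection flag of the scanner software (well above background) was set for 7 of 11 member probes in CD45-negative cells at day 10, 11 at day 0, and 7 in LSK cells on each day. Over all probes, 459, 126, 437 and 315 were saturated on the CD45-negative day 10, CD45-negative day 0, LSK day 10 and LSK day 0 arrays, and 47.6% to 56.6% were above background. Spots of a replicated probe within an array had a median SD of 0.083 to 0.106 log2 units.

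**Figure D1:**
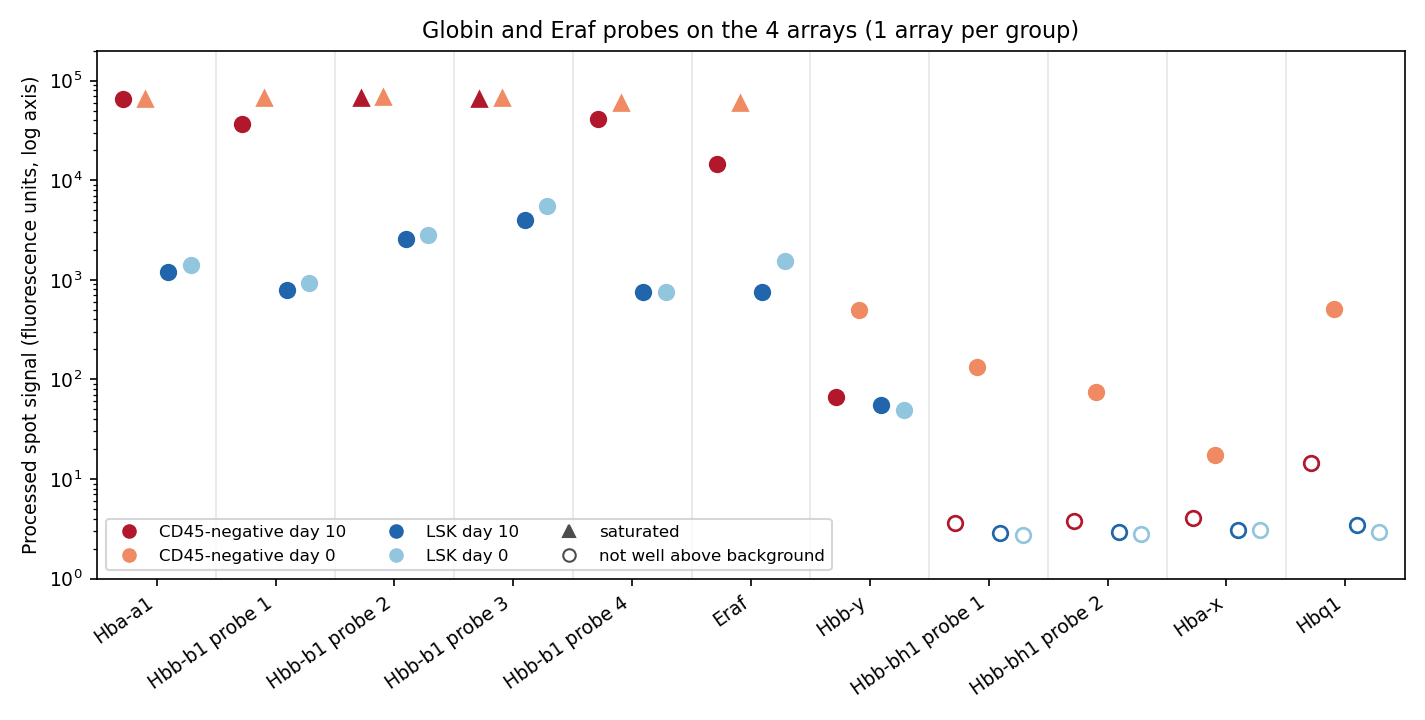
Processed spot signal (fluorescence units, log axis) of the 11 globin and Eraf probes on the 4 arrays, 1 point per array, with triangles for saturated spots and open circles for spots not well above background. The 6 probes on the left reach the ceiling in CD45-negative cells at day 0, and the embryonic and theta globin probes on the right are brightest there.

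The adult alpha globin probe Hba-a1 had a processed signal of 65973 units in CD45-negative cells at day 10 and 65903 units at day 0, where it was saturated, and 1191 and 1418 units in LSK cells at day 10 and day 0. The day 10 spot of CD45-negative cells escaped the saturation flag although 14 of its 42 pixels were saturated, so its true level may be higher than the value printed. Both CD45-negative arrays were therefore bright in alpha globin, and the LSK arrays were clearly dimmer.

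The 4 probes of Hbb-b1, the adult beta globin, gave the same order of populations. Probe 1 read 37147 units in CD45-negative cells at day 10 and 66985 units (saturated) at day 0, with 784 and 936 units in LSK cells at day 10 and day 0. Probe 4 read 41525 units at day 10 and 59574 units (saturated) at day 0 in CD45-negative cells, and 748 and 762 units in LSK cells. Only these 2 probes of Hbb-b1 fell below the ceiling in CD45-negative cells at day 10. Probe 2 was saturated on both CD45-negative arrays (67071 units at day 10 and 68271 units at day 0) and read 2550 and 2812 units in LSK cells. Probe 3 was also saturated on both (65777 and 67734 units) and read 3995 and 5508 units in LSK cells. Processed values can pass the ceiling of the raw signal after the scanner software has removed spatial trends, and their order among saturated spots carries no information.

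Eraf, the alpha globin chaperone, lay furthest below the ceiling at day 10 among the bright probes. It read 14463 units in CD45-negative cells at day 10 and 60024 units (saturated) at day 0, and 748 and 1547 units in LSK cells at day 10 and day 0.

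The embryonic and theta globins were saturated on no array and each was brightest in CD45-negative cells at day 0. Hbb-y, the embryonic epsilon-like chain, read 65.8 ± 8.17 units in CD45-negative cells at day 10 and 494 ± 49.5 units at day 0, and 55.4 ± 6.42 and 49.6 ± 6.26 units in LSK cells at day 10 and day 0, where ± is the spot error given by the scanner software. It is the single member above background and unsaturated on all 4 arrays. Hbq1, a theta globin whose role in the mouse is not settled, read 14.5 units in CD45-negative cells at day 10, not well above background, against 509 units at day 0. In LSK cells it read 3.47 and 2.97 units, also not above background. Probes 1 and 2 of Hbb-bh1, the embryonic beta-h1 chain, read 133 and 74.7 units in CD45-negative cells at day 0 and were not above background on the other 3 arrays. Hba-x, the embryonic zeta chain, read 17.6 units there and was likewise not above background elsewhere. For these 4 probes the signal passed the detection flag on the CD45-negative day 0 array alone. Adult globin probes were saturated on that array, and whether adult globin RNA also bound the embryonic and theta probes was not tested.

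Differences between days in CD45-negative cells were computed after the 75th percentile of each array had been subtracted on the log2 scale. A probe saturated or not well above background on 1 array gives a bound, written as at least N-fold, and one saturated on both gives none. By the flags, 9 of the 9 member probes with a value were at least 2-fold lower at day 10. One of them is Hba-a1, whose day 10 spot was partly saturated, so that it gives no sound bound. Counting any spot with a saturated pixel as saturated, a rule added after seeing the data, left 8 of 8, 1 of them measured and 7 as bounds. A bound can point only away from the array where the probe was saturated or alone detected. The direction of the 7 was thus set in advance, and that of Hbb-y alone was open. Over the whole array most values were measured (26760 of 31302 by the flags), so the shares of all probes are of another kind. By the flags, over all 31302 probes with a value, 26.3% lay past 2-fold in the lower direction and 18.9% in the higher, and both shares were the same under the stricter rule. With each bound taken at its limit, the median of those 8 members was -3.55, against -0.02 over all probes with a value. The 2-fold threshold is a size and not a test. The members' values share 1 pair of arrays and, within genes, overlapping probes.

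Hbb-y was 20.4-fold lower at day 10 (log2 difference -4.35), the only difference of the members measured on both sides. It is the difference of the probe signal, and a share of adult globin RNA in that signal was not tested. The theta globin Hbq1 was at least 82.6-fold lower. The Hbb-bh1 probes were at least 21.6-fold and 12.1-fold lower, and Hba-x at least 2.86-fold lower. These bounds depend on the background and on the scaling. With the normexp background correction the bounds were -3.79 for Hbq1 and -2.60 and -2.08 for the Hbb-bh1 probes on the log2 scale, and Hba-x was no longer past 2-fold under cyclic loess normalization (-0.66) or without scaling (-0.07). Among the bright members, Eraf was at least 11.3-fold lower, and Hbb-b1 at least 4.90-fold at probe 1 and 3.90-fold at probe 4. For Hba-a1, with both spots at or near the ceiling, no fold is given. Bounds of different size do not rank the genes, since each stops at the ceiling or at the background of its own array. In bulk samples such as these, fewer red cell precursors and less globin RNA in each of them cannot be told apart.

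The bounds of the adult globins also rest on how the arrays are scaled. The 75th percentile signal was 315 units for CD45-negative cells at day 10 and 116 units at day 0, so the scaling lowers every day 10 value by 1.44 log2 units relative to day 0. Without it, the Hba-a1 spots of the 2 days differed by 0.0015 log2 units, and no direction is left. Hbb-b1 was then at least 1.80-fold lower at probe 1 and 1.43-fold at probe 4, and Eraf at least 4.15-fold. Hbb-y was 7.51-fold lower without scaling. With no scaling, 5 of 8 member probes with a value were at least 2-fold lower, against 5.52% of all probes.

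Spike-in control probes, which read RNA added to each sample rather than RNA of the cells, gave a different scale. Their mean signal over 5 unsaturated probes was 465 units for CD45-negative cells at day 10 and 1642 units at day 0, and 1131 and 829 units for LSK cells at day 10 and day 0. How much was added to each sample is not stated in the sources used here. Scaling on them raises every CD45-negative day difference by 3.26 log2 units, so that 94.2% of all probes lay past 2-fold in the higher direction at day 10 and 0.997% in the lower. On that scale 3 of the 5 member probes with a value were still at least 2-fold lower. These were Hbq1 (at least 8.61-fold), Hbb-bh1 probe 1 (at least 2.25-fold) and Hbb-y (2.13-fold). Eraf was at least 1.18-fold and Hbb-bh1 probe 2 at least 1.26-fold lower. Hba-x and Hbb-b1 had no direction on the spike-in scale, nor did Hba-a1. Which scale matches the RNA content of the sorted cells was not tested.

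**Figure D2:**
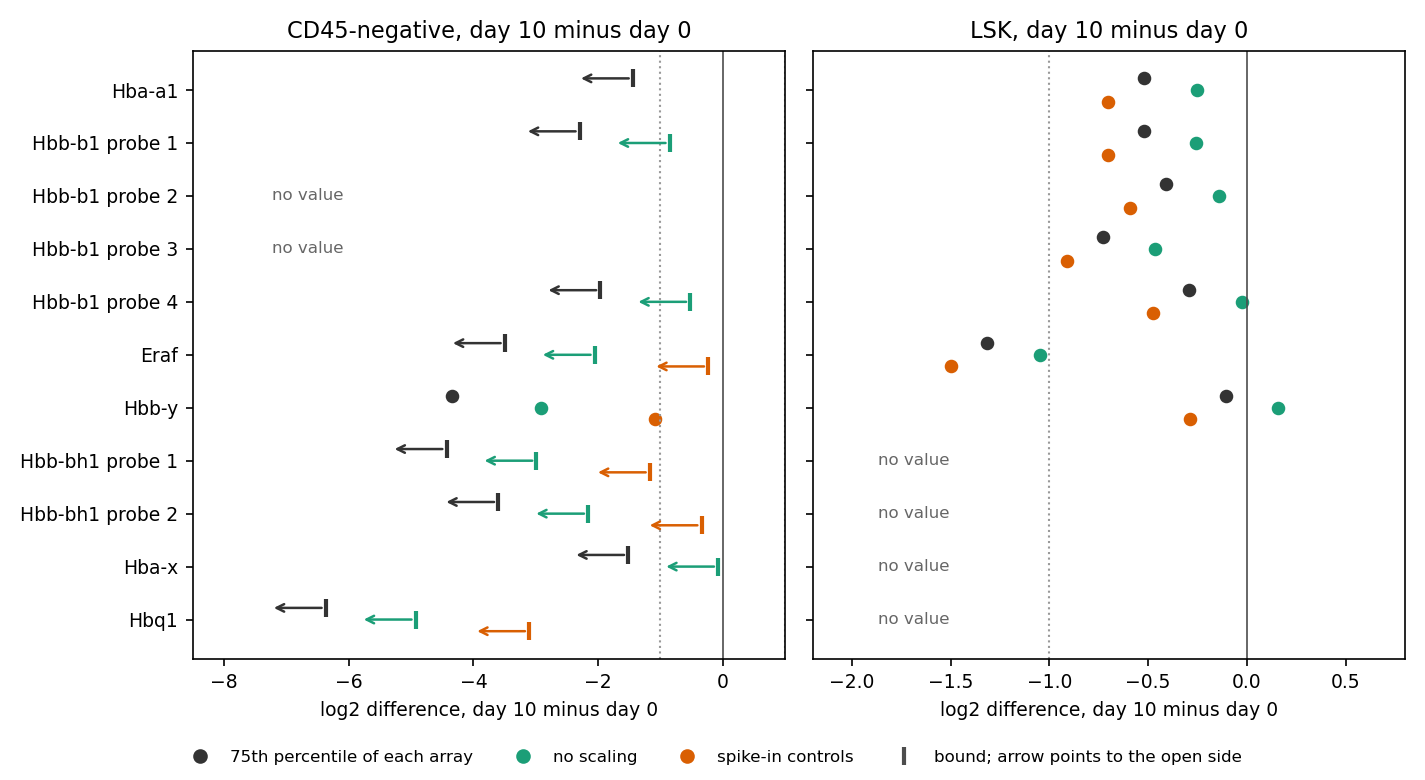
Log2 difference of each member probe, day 10 minus day 0, in CD45-negative cells (left) and LSK cells (right) under 3 scalings of the arrays, with circles for measured differences, bars with arrows for bounds and dotted lines at 2-fold. In CD45-negative cells every mark lies below 0, from -6.37 for Hbq1 by the 75th percentile, a missing mark means that no direction is left under that scaling, and the mark of Hba-a1 rests on a partly saturated day 10 spot. In LSK cells Eraf stands lowest, at -1.31 by the 75th percentile and -1.496 on the spike-in scale.

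In LSK cells Eraf was lower at day 10, and the adult globins lay slightly below their day 0 level by amounts that depend on the scaling. Of 7 member probes with a value, 7 had a negative difference and 1, Eraf, was at least 2-fold lower. Among the 31608 probes measured on both arrays, 49.9% had a negative difference. Among all 35233 probes with a value, 3.7% lay past 2-fold in the lower direction and 2.14% in the higher. The 7 include 4 probes of Hbb-b1, of which probes 2 and 4 overlap, and all share 1 pair of arrays. Eraf was 2.49-fold lower (-1.31). Hba-a1 was lower by a log2 difference of -0.52, and the Hbb-b1 probes by -0.52, -0.41, -0.73 and -0.29. The median of the 7 was -0.52, against 0.00 over all probes measured on both arrays. The spot error of a difference between these arrays is about 0.12 log2 units (the root of the summed squares of both arrays' median spot SD), which covers spotting error and not the spread between mice. Hbb-y, at -0.11, lies within it, and its sign turned to 0.16 without scaling. Without scaling the Hbb-b1 probes 1 to 4 were at -0.26, -0.14, -0.46 and -0.03, Hba-a1 at -0.25 and Eraf at -1.05, so that probe 4 fell within the spot error too. The error given by the scanner software is larger, with a proportional part of 10% of the signal. Values just past 0.12 are therefore not set apart from error. The remaining 4 probes were not above background on either LSK array. The difference of Eraf was larger than that of any adult globin probe in LSK cells, and a test of that contrast is not possible with 1 array a group.

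Set side by side by the percentile scaling, the day difference of Hbb-y was -4.35 in CD45-negative cells and -0.11 in LSK cells. That of Eraf was at most -3.50 in CD45-negative cells and measured at -1.31 in LSK cells, and that of Hbb-b1 probe 1 was at most -2.29 in CD45-negative cells and -0.52 in LSK cells. On the spike-in scale Hbb-y was at -1.09 in CD45-negative cells and -0.29 in LSK cells. Eraf was then at most -0.23 in CD45-negative cells and measured at -1.496 in LSK cells. Hbb-b1 probe 1 had no direction in CD45-negative cells and was at -0.71 in LSK cells. For Eraf and Hbb-b1 probe 1, that scale thus does not show which population had the larger day difference. The difference between these day differences was not tested, since 1 array a group leaves no residual degrees of freedom.

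Between the populations, every member was brighter in CD45-negative cells at day 0, and the adult genes and Eraf remained so at day 10. At day 10, 6 of 7 member probes with a value were at least 2-fold higher in CD45-negative cells than in LSK cells, while 10.9% of all probes lay past 2-fold in that direction and 16.2% in the other. Hba-a1, with its partly saturated spot on top, was at least 42.0-fold higher, Hbb-b1 probe 1 was 35.9-fold and probe 4 42.1-fold higher, and Eraf was 14.7-fold higher. Hbb-b1 probes 2 and 3 were at least 19.9-fold and 12.5-fold higher. Hbb-y was level between the populations at day 10 (-0.15), though on the spike-in scale it was higher in CD45-negative cells by 1.53.

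At day 0, 11 of 11 member probes were at least 2-fold higher in CD45-negative cells than in LSK cells, against 20.7% of all probes in that direction and 19.1% in the other. Of the 11, 1 was measured and 10 were bounds. Each of these 10 was saturated, or detected, on the CD45-negative array alone, so a bound could point only in this direction. Over the whole array 27098 of 32705 values were measured. Hbb-y was measured at 17.1-fold higher. The bounds for the adult genes were at least 79.6-fold for Hba-a1 and at least 123-fold, 41.6-fold, 21.1-fold and 134-fold for Hbb-b1 probes 1 to 4. Eraf was at least 66.4-fold and Hbq1 at least 67.8-fold higher. The Hbb-bh1 probes were at least 17.7-fold and 9.97-fold higher and Hba-x at least 2.35-fold. Hba-x was no longer past 2-fold with normexp (0.74), cyclic loess (0.87) or no scaling (0.46), which left 10 of 11. Spike-in scaling lowers these day 0 differences by 1.76 log2 units. Hbb-y was then 5.03-fold higher, Hba-a1 at least 23.5-fold higher, and Hba-x had no value, which left 10 of 10.

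**Figure D3:**
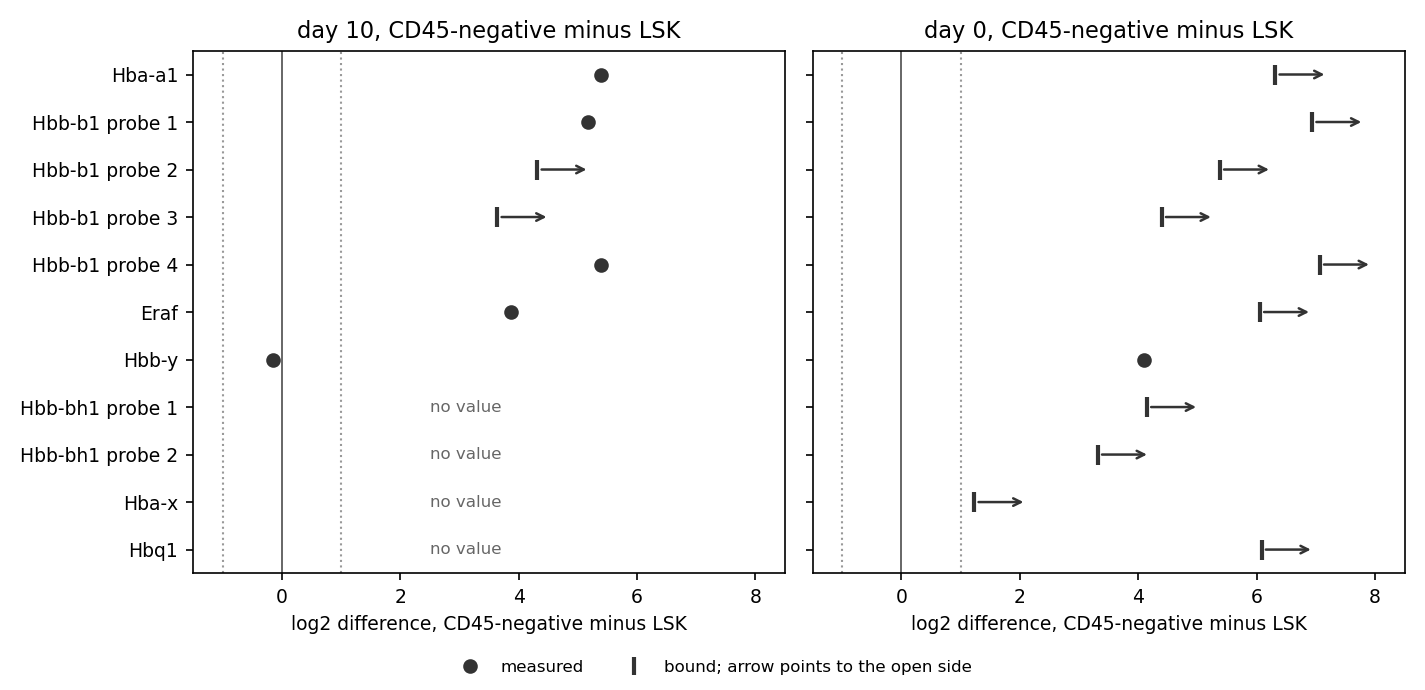
Log2 difference of each member probe, CD45-negative minus LSK, at day 10 (left) and day 0 (right), with circles for measured differences and bars with arrows for bounds that are open to the right. All 11 probes lie to the right of the 2-fold line at day 0, and Hbb-y lies near 0 at day 10.

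The differences of the bright members end where the scanner stops, so unsaturated probes with a globin-like description or a shared run of bases were looked at beside them. These were chosen after their values had been seen, and what they hybridise to was not tested. Gm5226, a predicted gene whose probe shares a run of 18 bases with the Hba-a1 probe and 45 of 55 aligned bases, read 123 units in CD45-negative cells at day 10 and 4317 units at day 0. It was 95.7-fold lower at day 10 (-6.58) and not above background in LSK cells. F830116E18Rik is the second theta gene Hbq1b in RefSeq, and its probe shares a run of 21 bases with the Hbq1 probe and 33 of 58 aligned bases. It read 77.7 units in CD45-negative cells at day 10 and 1284 units at day 0, a 44.9-fold lower level at day 10. LOC633175, described in the files as similar to the haemoglobin beta chain, read 30.03 units in CD45-negative cells at day 10 and 613 units at day 0, a 55.4-fold lower level. It was above background in LSK cells too, with 46.1 units at day 10 and 34.5 units at day 0. LOC100044141, described as similar to beta-globin, read 105.01 units in CD45-negative cells at day 10 and 467 units at day 0 on 1 probe, a 12.1-fold lower level, and was not above background on any array on its other probe. Likeness to member probes was low, at best 28 of 53 aligned bases for LOC633175 (Hbb-b1 probe 4) and 18 of 36 for LOC100044141 (Hbb-y). Probes on different parts of 1 gene can also score low, as Hbb-b1 probes 1 and 2 did with 17 of 42 bases. Likeness between probes therefore cannot tell whether these probes bind adult beta globin RNA. By the percentile scaling, the folds of these unsaturated probes thus span 12.1 to 95.7, and no probe of theirs is a member. These folds too depend on the scaling. The spike-in scale raises each of these day differences by 3.26 log2 units, against -3.60 for LOC100044141 and -6.58 for Gm5226. Each stays negative there, but little is left of the LOC100044141 difference.

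Pattern likeness could be computed for Hbb-y alone. Over the 4 arrays its mean-centred log2 levels lay closest to those of Gm7644 among 20459 genes compared (Euclidean distance 0.14). Ank (0.14), Mfsd2b, named Gm1964 in the files (0.18), a transcript with no gene name (0.18) and Ift140 (0.21) followed. These distances describe 4 arrays, each of a different group.

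Genes that act with haemoglobin were read from 6 lists. Of 21 globin gene regulators with a value, 9 were at least 2-fold lower and 4 at least 2-fold higher in CD45-negative cells at day 10, with a median of -0.37. Sox6, a repressor of embryonic globin genes, differed by -5.73. Tal1, a factor of erythroid gene activation, differed by -4.51. Klf1, the activator of adult beta globin, was at -4.06 and Gata1, the erythroid master regulator, at -3.57. Bcl11a, a repressor of embryonic beta-like genes, was level (0.07). The 4 higher regulators, named after their values were seen, were Klf8 (at least 1.58), Hic2 (1.52), Myb (1.21) and Ikzf1 (1.19). The median of this list turned to 2.90 on the spike-in scale and 1.08 without scaling.

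Of 17 genes of haem supply and its link to globin translation, 16 were at least 2-fold lower, with a median of -3.65. Alas2, which starts haem synthesis in red cells, was saturated at day 0 and at least 45.7-fold lower. Fech, which inserts iron, differed by -4.61. Abcb10, a mitochondrial transporter, was at -4.57 and Uros, an enzyme of the same pathway, at -4.26. Eif2ak1, the kinase that slows globin translation when haem is short, was at -3.65. Flvcr1, a haem exporter, was the exception at 1.07. On the spike-in scale the median of the list was -0.39, with 4 genes at least 2-fold lower and 3 higher.

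Red cell membrane genes gave the lowest median of the 6 lists, -4.66, with 18 of 18 at least 2-fold lower. Epb42 (-5.39) and Sptb (-5.26), both of the membrane skeleton, stood among its lowest values. Late enzymes and remodelling genes were at least 2-fold lower in 15 of 15, with a median of -3.89. Tmcc2 (-5.97), Trim10 (-5.19) and Bpgm (-4.93), which makes the regulator of oxygen release from haemoglobin, led that list. On the spike-in scale these medians were -1.39 and -0.84. Of 8 haemoglobin clearance genes with a value, 5 were at least 2-fold lower with a median of -1.10, which turned to 2.24 on the spike-in scale and 0.42 without scaling. The haem transporter Slc48a1 (-2.74), the iron exporter Slc40a1 (-1.96) and the receptor Lrp1 (-1.31) led it. Of other globins, Mb, the muscle oxygen store, was at least 11.8-fold and Cygb at least 10.7-fold lower, and Ngb differed by -0.39. The median of this list was -3.42, and -0.16 on the spike-in scale.

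In LSK cells the same lists differed less in size than in CD45-negative cells by the percentile scaling, with the largest median in the membrane list. Of the haem supply genes 0 of 17 were at least 2-fold apart (median -0.20), of the late enzymes 0 of 14 (-0.23) and of the clearance genes 0 of 11 (0.09). These are counts by size, and no test was run. Of the membrane genes 4 of 14 were at least 2-fold lower, with a median of -0.78, against 1 of 14 without scaling (median -0.51) and 7 of 14 on the spike-in scale (-0.96). The 4 genes were Rhd (-1.46), Ank1 (-1.27), Dmtn (-1.14) and Slc4a1 (-1.13), named after their values were seen. Of 21 globin regulators Sox6 was at least 2-fold lower (-1.62), with Klf1 at -0.24, Gata1 at -0.55 and Bcl11a at -0.15, and the list's median was -0.11. Without scaling the medians of the regulators, haem supply and late enzyme lists turned positive, at 0.15, 0.07 and 0.04. On the spike-in scale the haem supply medians of the 2 populations were alike, at -0.38 in LSK cells and -0.39 in CD45-negative cells.

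**Figure D4:**
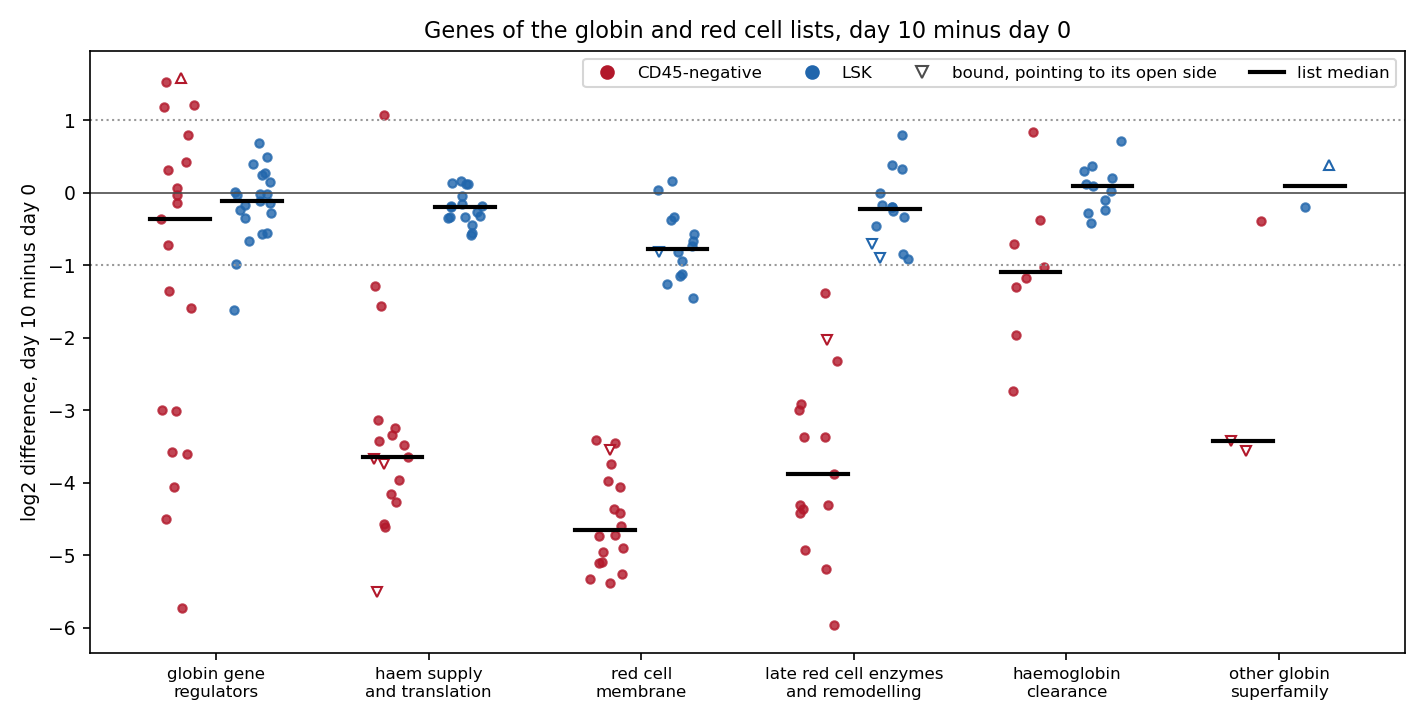
Log2 difference, day 10 minus day 0, of each gene with a value in 6 lists, in CD45-negative cells (red, left of each pair) and LSK cells (blue, right), scaled by the 75th percentile, with black lines for list medians and open triangles for bounds. The membrane list has the lowest median in CD45-negative cells (-4.66), while the LSK medians lie between -0.78 and 0.09.

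Markers of several cell types moved with these values. In CD45-negative cells, 12 of 12 erythroid markers were at least 2-fold lower at day 10 (median -4.81) and all 12 were above background on both days, with a median level of 1.67 at day 10 and 6.05 at day 0 relative to the 75th percentile. On the spike-in scale 8 of the 12 were (median -1.55). Among these markers Klf1, Gata1, Alas2, Epb42 and Slc4a1, with others, also stand in the lists above, and none is a member. Of the megakaryocyte and platelet markers, 5 of 6 were lower (median -4.10, or 2 of 5 lower and 1 higher with a median of -0.84 on the spike-in scale), and of the stromal markers 6 of 7 (median -2.68, or 0.11 on the spike-in scale). T and NK cell markers were at least 2-fold higher in 9 of 9 (4.78) and B and plasma cell markers in 7 of 8 (2.74). Neutrophil markers were higher in 4 of 6 (1.47). Stem and progenitor markers were higher in 1 and lower in 1 of 6 (0.01), and macrophage markers were lower in 2 of 5 (0.32), though on the spike-in scale these medians were 3.26 and 3.59. Ptprc, the gene of CD45, stood at 5.58 at day 10 and 3.10 at day 0 in this sort, so neither array was free of CD45 transcripts. In LSK cells it stood at 4.25 at day 10 and 4.18 at day 0. The CD45-negative sort thus lay above LSK cells in Ptprc at day 10 and below them at day 0, and its name is only that of the labels. The part of these cell types in the globin differences was not tested. In LSK cells, 9 of 12 erythroid markers were above background on each day and 1 of 9 with a value was at least 2-fold lower, with a median of -0.52, the same as that of the 7 members. Kit stood at 4.65 at day 10 and 5.04 at day 0 there, and Ly6a, the gene of Sca-1, at 2.86 and 2.98.

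Neighbouring genes give the local setting of the 2 clusters. Before the alpha cluster, in RefSeq order, Nprl3, which holds the alpha globin enhancers of the mouse in its introns, differed by -2.07 between days in CD45-negative cells. Mpg next to it was at -1.72 and Snrnp25 at -0.98. Behind the cluster Ubtd2 (1.29), Stk10 (1.72) and Fbxw11 (1.21) differed the other way. In LSK cells these 6 genes lay between -0.23 and 0.11. Sh3pxd2b, also behind the cluster, had a bound of -2.33 between days in LSK cells and no value in CD45-negative cells. Il9r, Rhbdf1 and Efcab9 gave no value between days in either population. The spike-in shift of 3.26 log2 units is larger than each of the CD45-negative differences of Nprl3, Mpg and Snrnp25. The beta cluster lies among olfactory receptor genes, of which 9 of the 10 nearest gave no value and Olfr67 had a bound of -1.14 between days in CD45-negative cells.

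Since most members with a value were lower in CD45-negative cells at day 10, their promoters were compared. RefSeq (GRCm38.p6) gave a promoter for 9 of 10 globin genes looked for. The 150 bases before the annotated start of 4 of them are shown, 5′ to 3′ on the strand of the gene, with capitals for the TATA box (TATAA), the CCAAT box (CCAAT), the CACCC box (CACCC), which is the motif Klf1 is known to bind, and the GATA motif (GATAA), searched on both strands.
Hba-a1: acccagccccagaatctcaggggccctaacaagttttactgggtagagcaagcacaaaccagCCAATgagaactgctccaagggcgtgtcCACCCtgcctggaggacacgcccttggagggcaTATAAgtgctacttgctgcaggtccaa
Hba-x: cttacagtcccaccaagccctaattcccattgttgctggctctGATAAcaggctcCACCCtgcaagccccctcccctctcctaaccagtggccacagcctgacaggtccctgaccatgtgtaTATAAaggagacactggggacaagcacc
Hbb-bt: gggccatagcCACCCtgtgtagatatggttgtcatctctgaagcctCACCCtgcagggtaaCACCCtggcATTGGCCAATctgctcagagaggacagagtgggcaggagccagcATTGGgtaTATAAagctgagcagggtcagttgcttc
Hbb-y: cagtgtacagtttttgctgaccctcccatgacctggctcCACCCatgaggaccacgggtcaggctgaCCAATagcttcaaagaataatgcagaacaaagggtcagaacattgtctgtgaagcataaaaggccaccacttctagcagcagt

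These lie at chr11:32283522-32283671 and chr11:32276450-32276599 on the plus strand and at chr7:103813924-103814073 and chr7:103853208-103853357 on the minus strand. Hba-a1 holds 1 TATA, 1 CCAAT and 1 CACCC box. Hbb-bt is listed for every Hbb-b1 probe, with another beta gene beside it for probes 1 and 3. Its promoter holds 1 TATA box with 3 CCAAT and 3 CACCC boxes, of which 2 CCAAT boxes are on the opposite strand. That of the beta gene Hbb-bs, not printed here, holds 1 TATA, 1 CCAAT and 1 CACCC box. Hba-x holds a TATA box, a CACCC box and the single GATA motif found among the genes. Hbb-y holds a CCAAT and a CACCC box. Hbq1a holds a CCAAT box and none of the other letters. Of 32851 promoter windows of this length in RefSeq, 14.2% hold a TATA box, 24.5% a CCAAT box, 37.4% a CACCC box and 13.3% a GATA motif, and 1.096% hold the first 3 together. Over 147 aligned bases the Hba-a1 and Hba-a2 promoters are identical, and those of Hbq1a and Hbq1b share 146 of 150 bases. A match of letters is a description and not a binding site.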

How the data were processed

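RNA (500 ng a sample, oligo-dT primed, Cy3 labelled, per the labels) was hybridised to 4 Agilent arrays, 1 for each group. The authors used Agilent Feature Extraction 10.5.1.1 with 1 scan pass, per the file headers. The deposited spot files hold fluorescence intensity values for each spot, raw and as a processed signal with background and spatial trends removed. Flags for detection, saturation and outlier spots stand beside them in the deposited files (unit: other). In the series table the authors deposited log2 values with each array's 75th percentile close to 0. They equal the log2 processed signal minus a constant, within 0.001, for 99.9% of probes or more. Its direction is that of the signal.

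Control and outlier spots were left out. Levels are log2 processed signals minus the array's 75th percentile. A difference counts as measured where both arrays had the probe unsaturated and detected (well above background). Where it was dim on 1 array it is a bound against the lowest level above background there, and where it was saturated on 1 array a bound against the saturated value. Gene symbols were updated through RefSeq accessions, which matched 28136 probes, and each listed gene was read from its brightest probe. Sequences come from the spot files and from RefSeq (GRCm38.p6). The design of the array is on mm9 per the file headers, and no coordinates of it are given.

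Samples were grouped by their titles, 4 comparisons were made by size of at least 2-fold, and no test was possible. Every member probe is named. Of each list the 3 genes with the largest measured difference between days in CD45-negative cells are named, with Klf1, Gata1, Bcl11a, Alas2, Eif2ak1, Mb, Ptprc, Kit and Ly6a always. One gene that this rule picks is not reported here. The members and lists were chosen with earlier results of these data known. The bounds and counts were tested on simulated data. The simulated probes were limited to those with room below the ceiling, so bounds from saturated spots were little covered. Detection was simulated with a fixed signal cutoff and not with the flag of each spot. Bounds from dim spots thus held by construction there, and the simulation cannot check them on the real arrays. Alternatives were normexp (offset 50) and local background subtraction, quantile and cyclic loess normalization, median, common-probe and spike-in scaling, the deposited table, no detection filter, saturated spots at their signal, thresholds of 1.5-fold and 4-fold, 1 value a gene, no scaling, and any saturated pixel counted as saturation, the last 2 chosen after seeing the data. R 4.3.3 with limma 3.58.1 and Python 3.11.15 with pandas 2.3.3, numpy 2.4.6 and matplotlib 3.10.9 were used.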

Additional observations from a re-analysis of the deposited data

How the results depend on the processing

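In CD45-negative cells, 9 member probes were at least 2-fold lower at day 10, and the count was 3 after scaling on the spike-in controls (of 5 with a value) and 5 with no scaling between arrays (of 8), a setting chosen after seeing the data. The percentile of probes detected on all arrays, the deposited table and both background corrections gave 9, quantile and cyclic loess normalization and a median shift 8. In LSK cells the count of 1 became 2 at a 1.5-fold threshold and 0 at 4-fold, again a count by size and not a test. For CD45-negative against LSK cells, taking 1 value a gene gave 3 at day 10 (of 4 genes with a value) and 7 at day 0 (of 7), against 6 and 11 probes, since fewer items are counted. Counting any saturated pixel, also chosen after seeing the data, gave 8 by leaving out Hba-a1, which was no longer past 2-fold under quantile normalization (-0.11) and a median shift (-0.98) either. Hba-x was lost under cyclic loess normalization in the same comparison, and at day 0 against LSK cells under normexp, cyclic loess, spike-in scaling and no scaling, each of which gave 10 in place of 11. The cause was not tested. A bound that crosses 0 has no value, so a bound cannot change its sign here, and that none did says nothing of stability. The alternatives shifted the median of all probes by up to 3.26 log2 units in the CD45-negative day comparison. Saturation limits the differences of Hba-a1, Hbb-b1 and Eraf in CD45-negative cells, and the background limits those of Hba-x, Hbb-bh1 and Hbq1. No paired analysis was possible because each group has 1 array.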
